A study of Mus musculus with 6 samples.

Results

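CXCR2, CXCR1 and 4 of their chemokine ligands were followed as transcripts in neutrophils isolated from mouse liver and from mouse blood. The 6 genes, Cxcl1, Cxcl2, Cxcl3, Cxcl5, Cxcr1 and Cxcr2, are a receptor family and its ligands taken by symbol, and are 6 of the 53090 gene rows in each deposited table. There were 3 libraries of liver neutrophils and 3 libraries of blood neutrophils. All came from mice fed for 1 week with DDC (3,5-diethoxycarbonyl-1,4-dihydrocollidine), which damages bile ducts, so both groups carry the effect of the diet. Cells were drawn with magnetic beads against Ly6G, a surface protein of mouse neutrophils, after a Percoll density gradient of dispersed liver or after lysis of red cells in blood. Tissue and preparation cannot be told apart. The labels used here give no strain, genotype, sex or age, and do not tell if any mouse gave both a liver and a blood library. The p-values therefore measure only the spread between the libraries, part of which may be technical.

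The 4 ligands belong to the CXC chemokines that carry a glutamate-leucine-arginine motif ahead of their first cysteines and attract neutrophils. They bind CXCR2, a receptor that signals through inhibitory G proteins to phosphoinositide 3-kinase gamma and the Rac GTPases and so directs migration. A receptor that has bound ligand is phosphorylated, bound by arrestin and taken into the cell. In the liver CXCL1 and CXCL2 are known as products of hepatocytes, stellate cells, macrophages and endothelium that bring neutrophils to injured tissue, and neutrophils themselves also make CXCL2.

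Libraries held 13054673 to 17579669 estimated counts. Levels are given as CPM (counts scaled to library size), where 3 counts were worth 0.181 to 0.263 CPM, and such a floor covers counting error only. All 10 neutrophil markers had counts in all 6 libraries. Their summed level was 7534 to 13510 CPM in liver and 20980 to 32050 CPM in blood, and 7 of 10 were called lower in liver, Ly6g among them. Over all 13458 genes tested, 17.4% were called higher in liver and 14.2% lower, for this and the other marker counts. Only 4 of the 10 were called lower without liver 1, without liver 3, without blood 2, or without liver 3 and blood 1 together.

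Markers of several other cell types differed between the groups as well. Of the tested markers, 5 of 9 for Kupffer cells and macrophages (summed 296 to 538 CPM in liver, 82.5 to 225 CPM in blood), 5 of 8 for monocytes (1072 to 1642 CPM in liver, 362 to 515 CPM in blood), 5 of 6 for hepatocytes (271 to 481 CPM in liver, 109 to 153 CPM in blood) and 4 of 5 for liver endothelium (22.7 to 50.6 CPM in liver, 14.9 to 19.1 CPM in blood) were called higher in liver. Some sums rest on 1 marker. Without Trf the hepatocyte markers summed to 17.1, 149 and 225 CPM in liver, against 6.90, 0.876 and 0.739 CPM in blood. Without Pecam1 the endothelial markers summed to 15.1 to 36.3 CPM in liver and 1.05 to 3.31 CPM in blood. Of the platelet markers, 4 of 6 were called lower (17.6 to 23.9 CPM in liver, 52.8 to 289 CPM in blood), as were 2 of 7 for lymphocytes (11.5 to 21.5 CPM in liver, 12.8 to 76.8 CPM in blood). Biliary epithelium had 1 marker called higher and 2 lower of 3 tested, with sums of 78.0 to 141 CPM in liver and 97.5 to 208 CPM in blood. Neither of 2 tested markers of stellate cells and fibroblasts was called (15.3 to 20.3 CPM in liver, 18.7 to 22.4 CPM in blood), and without Acta2 these markers summed to 4.24 to 5.92 CPM in liver and 0 to 1.44 CPM in blood. Clec4f, which marks Kupffer cells, was at 0 in blood 2 and blood 3, and Krt19, which marks biliary epithelium, was at 0 in liver 2, liver 3 and every blood library.

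Liver 3 had the highest macrophage, monocyte, hepatocyte and endothelial sums and blood 1 the highest platelet sum. Without both, the calls were 7 higher for macrophages, 4 for monocytes, 6 for hepatocytes and 4 for endothelium, 2 lower for platelets and 0 for lymphocytes, and 1 higher and 0 lower for biliary epithelium. With single libraries left out, the calls ranged over 2 to 7 higher for macrophages, 3 to 5 for monocytes, 2 to 6 for hepatocytes and 3 to 4 for endothelium, and over 1 to 5 lower for platelets, 0 to 2 for lymphocytes and 1 to 2 for biliary epithelium. The lowest counts came without liver 1, liver 3 or blood 3 for macrophages, without liver 1 or liver 2 for monocytes, platelets and lymphocytes, without blood 3 for hepatocytes and without blood 2 for biliary epithelium. The part of other cells in the differences below was not tested. In bulk RNA, fewer cells of a type and less RNA per cell cannot be told apart.

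Of the 5 genes with enough counts for a test, Cxcl1, Cxcl2 and Cxcl3 were called higher and Cxcr2 lower in liver, and Cxcr1 was not called. A gene was called at a Benjamini-Hochberg adjusted p under 0.05 by edgeR's quasi-likelihood test over 13458 genes, of which 17.4% were called higher and 14.2% lower. The median log2 fold change was 2.91 for the 5 genes and 0.04 for all genes tested. Cxcl5 had 8 counts in all and was not tested. Without liver 3 and blood 1 the same test also called 3 of the 5 higher and 1 lower.

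The 3 ligand genes with a test lie near each other on chromosome 5 and are read from the same strand. The sequences just before their starts are shown because they share short motifs. Each is the 250 bases before the transcript start in RefSeq (GRCm38.p6), plus strand, at chr5:90890995-90891244 for Cxcl1, chr5:90903649-90903898 for Cxcl2 and chr5:90785851-90786100 for Cxcl3. The capitals mark, in this order, a match to GGAANTTCC, a form of the NF-kB site, and a match to ATAAAAG, a form of the TATA box.
Cxcl1: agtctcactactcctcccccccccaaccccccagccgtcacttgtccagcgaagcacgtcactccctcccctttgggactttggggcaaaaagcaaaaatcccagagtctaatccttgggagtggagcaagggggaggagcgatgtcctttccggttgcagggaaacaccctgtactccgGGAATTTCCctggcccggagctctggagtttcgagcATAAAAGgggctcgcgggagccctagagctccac
Cxcl2: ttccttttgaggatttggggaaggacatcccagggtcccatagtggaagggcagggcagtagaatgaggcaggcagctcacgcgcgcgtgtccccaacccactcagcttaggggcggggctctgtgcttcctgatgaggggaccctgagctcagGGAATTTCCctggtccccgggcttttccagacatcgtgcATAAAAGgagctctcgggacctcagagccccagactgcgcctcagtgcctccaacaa
Cxcl3: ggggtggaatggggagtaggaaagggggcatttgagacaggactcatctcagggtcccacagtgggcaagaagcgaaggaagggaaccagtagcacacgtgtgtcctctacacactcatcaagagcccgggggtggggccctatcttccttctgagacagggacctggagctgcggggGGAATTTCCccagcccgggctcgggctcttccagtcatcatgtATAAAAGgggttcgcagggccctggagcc
The first motif reads GGAATTTCC in all 3 genes. It begins 66, 68 and 74 bases before the start in the GENCODE annotation of Cxcl1, Cxcl2 and Cxcl3, and ATAAAAG begins 30, 29 and 31 bases before it. The distance between the beginnings of the motifs is 36 bases in Cxcl1, 39 in Cxcl2 and 43 in Cxcl3. Both motifs, which do not overlap, were chosen after the sequences were seen and were searched on both strands of 300-base windows (250 bases before the RefSeq start and 50 after). Among all 32851 windows, 0.928% held the first, 5.42% held the second and 23 windows held both. Windows were found for 5 of the 6 genes. The window of Cxcr2 held neither motif, and that of Cxcr1 held only CTTTTAT, the reverse complement of ATAAAAG, beginning 57 bases before the start. A match is a description of letters and not a measured binding site.

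Cxcl2, which encodes a chemokine that neutrophils both secrete and follow, was the most abundant of the ligand transcripts. The gene spans chr5:90903871-90905938 (plus strand, GRCm38). It had 4549, 4634 and 3369 CPM in liver libraries 1, 2 and 3, against 491, 925 and 257 CPM in blood libraries 1, 2 and 3. The lowest liver value stood well above the highest blood value, and blood 2 was the highest of the blood libraries. The log2 fold change was 2.91 (SE 0.44, 95% interval 1.92 to 3.90, adjusted p = 0.0019 by edgeR), a 7.50-fold difference. It was 2.92 without liver 3 and blood 1 (SE 0.61, adjusted p = 0.0204 by edgeR).

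Cxcl1, also called KC, encodes a neutrophil attractant made by many stromal and epithelial cells. The gene spans chr5:90891241-90893115 (plus strand). It had 59.1, 36.9 and 33.3 CPM in liver, from 906, 612 and 518 counts, against 0.216, 1.31 and 0.269 CPM in blood, from 3, 15 and 4 counts. Blood 1 and blood 3 were thus close to the floor of 3 counts, and all liver libraries were far above it. The log2 fold change was 6.22 (SE 0.61, 95% interval 4.84 to 7.61, adjusted p = 0.00038 by edgeR), or 74.8-fold. Without blood 2, which holds 15 of the 22 blood counts, it was 7.40, and without liver 3 and blood 1 it was 5.95 (SE 0.67, adjusted p = 0.0032 by edgeR).

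Cxcl3 encodes another ligand of the same family, close to CXCL2 in sequence. The gene spans chr5:90786103-90789600 (plus strand). It had 230, 193 and 86.5 CPM in liver, against 2.08, 7.62 and 2.28 CPM in blood. Groups did not overlap, liver 3 was the lowest of the liver libraries, and blood 2 was again the highest of the blood libraries. The log2 fold change was 5.43 (SE 0.66, 95% interval 3.87 to 6.99, adjusted p = 0.0018 by edgeR), or 43.2-fold. It was 6.25 without blood 2, and 5.40 without liver 3 and blood 1 (SE 0.60, adjusted p = 0.0042 by edgeR).

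The estimated counts of Cxcl2 and Cxcl3 were fractions that summed to a whole number (within 0.005) in 6 of 6 libraries, so some reads were divided between these genes. The longest identical run that their transcripts share has 110 bases, at bases 63 to 172 of the Cxcl2 transcript and 57 to 166 of the Cxcl3 transcript. It includes the first 98 coding bases of both, shown because reads wholly inside it match both genes, with the start codon in capitals.
Cxcl2 and Cxcl3: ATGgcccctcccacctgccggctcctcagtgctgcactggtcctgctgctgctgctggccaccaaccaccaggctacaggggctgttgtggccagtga
No other pair of the 6 genes shared a run of 30 bases. Cxcl3 took 4.82%, 4.00% and 2.50% of the joint counts in liver, against 0.423%, 0.820% and 0.887% in blood. With the counts of both genes added as 1 feature, a choice made after seeing the data, the log2 fold change was 2.96 (SE 0.44, adjusted p = 0.0018 by edgeR).

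Cxcl5 encodes a ligand known mainly from epithelial cells and platelets. The gene spans chr5:90759360-90761624 (plus strand). It had 3, 4 and 0 counts in liver, against 0, 0 and 1 in blood. Its ratio of liver to blood was 5.93, with an exact 95% interval for counting error of 0.762 to 267, so no difference was detectable at this depth.

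**Figure D1:**
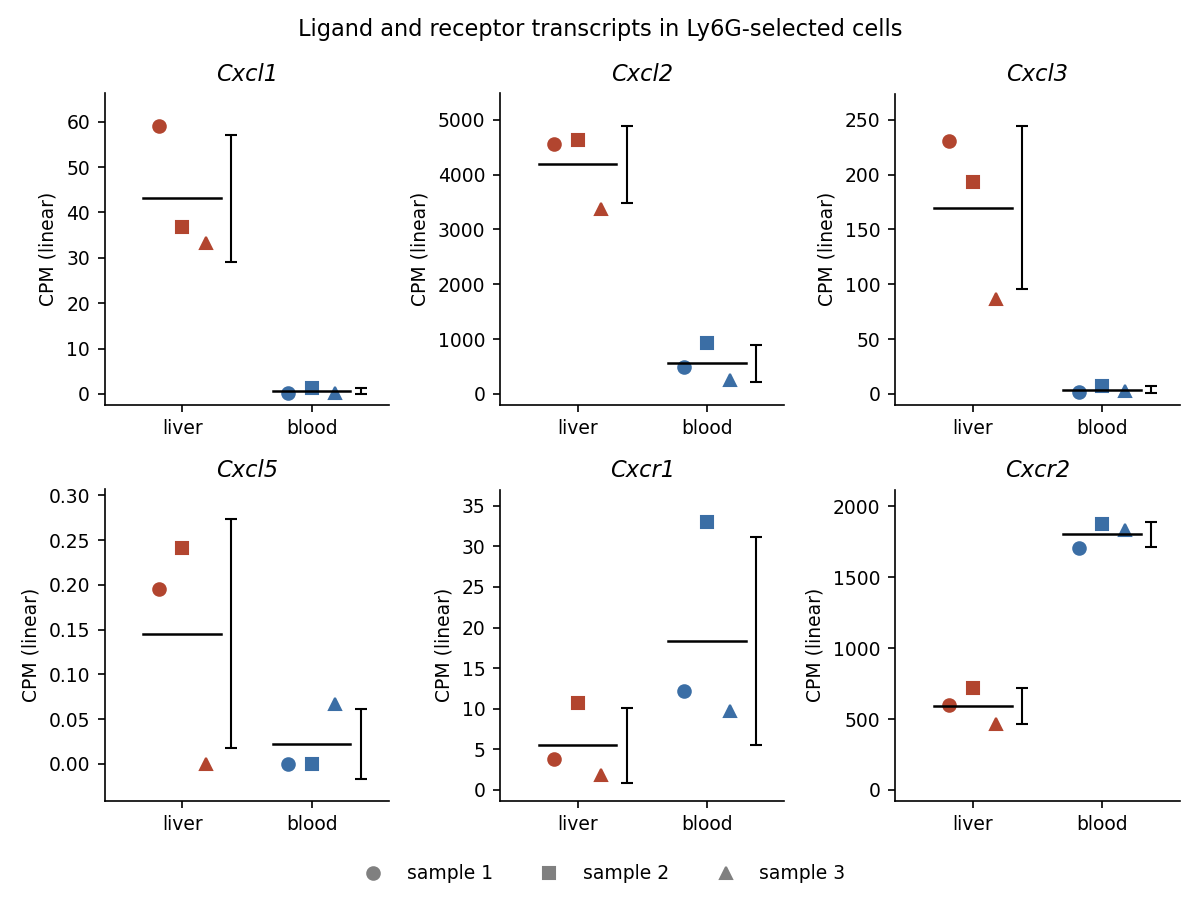
CPM of each gene (linear axis from near 0, a separate scale per gene) in 3 liver and 3 blood libraries, with the group mean as a line and its SD as a bar, and a symbol for each sample number. All liver libraries lie above all blood libraries for Cxcl1, Cxcl2 and Cxcl3 and below them for Cxcr2, while the groups overlap for Cxcr1 and Cxcl5.

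Cxcr2 encodes the receptor for all 4 ligands. The gene spans chr1:74153989-74161246 (plus strand). It had 601, 716 and 462 CPM in liver, against 1704, 1874 and 1829 CPM in blood. The blood libraries lay close together, and the highest liver library was below the lowest of them. The log2 fold change was -1.60 (SE 0.23, 95% interval -2.12 to -1.09, adjusted p = 0.0013 by edgeR), so liver was 3.04-fold lower. It was -1.52 without liver 3 and blood 1 (SE 0.30, adjusted p = 0.0129 by edgeR). The neutrophil marker list had a median log2 fold change of -1.20, with 7 of 10 genes called lower, or 4 of 10 without liver 1, liver 3 or blood 2.

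Cxcr1 encodes a related receptor, which in humans binds CXCL8 and which in mice has been less studied. The gene spans chr1:74191785-74194631 on the minus strand, 40.6 kb from the start of Cxcr2 to the end of Cxcr1. It had 3.85, 10.7 and 1.87 CPM in liver, against 12.1, 33.0 and 9.73 CPM in blood. Liver 2 stood above blood 3, so the groups overlapped, and library 2 was the highest in both tissues. The log2 fold change was -1.73 (SE 0.70, 95% interval -3.35 to -0.12), with an unadjusted p of 0.038 and an adjusted p of 0.095 by edgeR. The difference was called lower in 4 of 16 alternative analyses. It was -2.68 without liver 2 (adjusted p = 0.0219 by edgeR) and -1.02 without blood 2. Without liver 3 and blood 1 it was -1.58 (SE 0.73, adjusted p = 0.169 by edgeR).

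**Figure D2:**
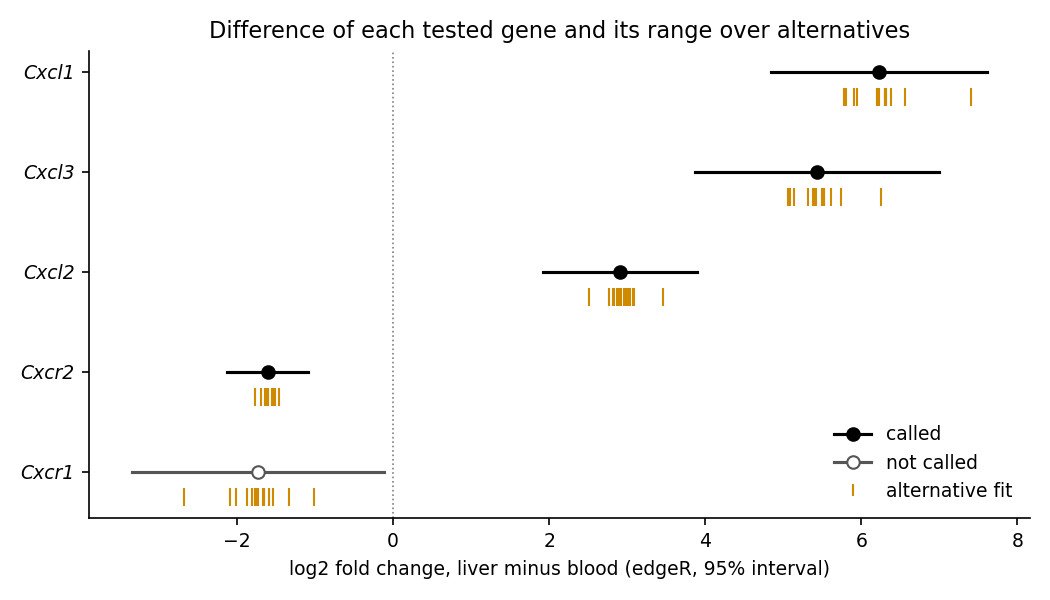
Log2 fold changes, liver minus blood, of the 5 tested genes with 95% intervals (filled for called, open for not called) and, under each, the values of its alternative fits as ticks. Cxcl1, Cxcl3 and Cxcl2 stay above 0 and Cxcr2 below 0 in every alternative fit, and the interval of Cxcr1 runs from -3.35 to -0.12.

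Levels of different genes were compared as CPM per kilobase of the longest protein-coding transcript. In liver the order of mean levels was Cxcl2 (2251 ± 380 CPM per kilobase), Cxcr2 (195 ± 41.7), Cxcl3 (167 ± 73.4), Cxcl1 (45.2 ± 14.7), Cxcr1 (3.78 ± 3.20) and Cxcl5 (0.0924 ± 0.0813) (SD, n = 3 each). Cxcr2 and Cxcl3 were neighbours within their spread. In blood the order was Cxcr2 (592 ± 28.9 CPM per kilobase), Cxcl2 (299.9 ± 182), Cxcr1 (12.6 ± 8.83), Cxcl3 (3.93 ± 3.09), Cxcl1 (0.629 ± 0.650) and Cxcl5 (0.0142 ± 0.0246) (SD, n = 3 each). The ligand Cxcl2 thus stood first in liver and the receptor Cxcr2 first in blood. In blood the means ± SD overlapped between Cxcr1 and Cxcl3, between Cxcl3 and Cxcl1, and between Cxcl1 and Cxcl5.

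Ratios within a library do not depend on how libraries are scaled. The ratio of Cxcl2 to Cxcr2, per length, was 12.4, 10.6 and 11.9 in liver, against 0.472, 0.808 and 0.230 in blood. Ligand transcripts outnumbered receptor transcripts in every liver library and in no blood library. The difference of the mean log2 ratios was 4.71, or 26.2-fold. On the log2 scale the ratio of Cxcl1 to Cxcl2 was -5.30, -6.01 and -5.70 in liver, against -10.19, -8.49 and -8.94 in blood, and that of Cxcl3 to Cxcl2 was -3.43, -3.71 and -4.41 in liver, against -7.01, -6.05 and -5.93 in blood. Both ratios were higher in every liver library, by 3.54 and 2.48 in the mean. The ratio of Cxcr1 to Cxcr2 was -6.21, -4.99 and -6.88 in liver, against -6.06, -4.76 and -6.48 in blood, with overlapping groups and a mean difference of -0.26. A two-sided exact permutation test gave p = 0.1 for each of the first 3 ratios, the smallest that 3 against 3 libraries allow, and p = 0.7 for the last (0.133 and 0.7 after adjustment over 4 ratios). The mean difference of the last ratio changed sign without liver 3, to 0.16, and without blood 2, to 0.24.

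**Figure D3:**
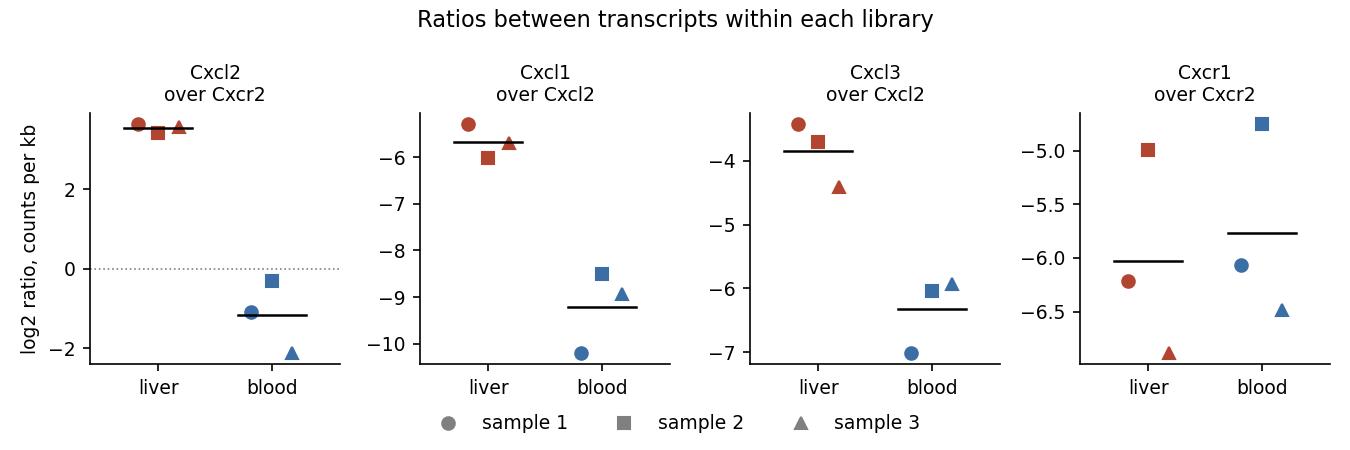
Log2 ratios of counts per kilobase between pairs of genes in each of 3 liver and 3 blood libraries (a separate scale per panel, group means as lines, 0 dotted in the first panel). The liver libraries lie above the blood libraries in the first 3 panels and overlap with them for Cxcr1 over Cxcr2.

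The summed level of the 4 ligands was 4838, 4865 and 3489 CPM in liver, against 493, 934 and 259.6 CPM in blood, an 8.82-fold difference of the geometric means (two-sided exact permutation p = 0.1, the smallest possible). Per length, Cxcl2 made up 89.4%, 91.6% and 93.8% of ligand transcripts in liver, against 99.1%, 98.2% and 98.2% in blood. Cxcl3 made up 8.28%, 6.98% and 4.41% in liver, against 0.771%, 1.49% and 1.61% in blood. Cxcl1 made up 2.27%, 1.42% and 1.81% in liver, against 0.0849%, 0.272% and 0.200% in blood. For these 3 shares the groups did not overlap (exact permutation p = 0.1 each, 0.133 after adjustment over 4 shares). Cxcl2 was therefore the main ligand transcript in both tissues, with a smaller share in every liver library than in any blood library.

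The ligand transcripts also held, in the 3' untranslated regions of the annotated coding transcripts, many copies of the pentamer ATTTA, which is the core of the AU-rich elements that shorten the life of many cytokine mRNAs. Cxcl1 held 7 copies in 592 bases (11.8 per kilobase), Cxcl3 held 5 in 645 bases (7.75 per kilobase), Cxcl2 held 11 in 1494 bases (7.36 per kilobase) and Cxcl5 held 5 in 1111 bases (4.50 per kilobase). Cxcr2 held 2 in 1818 bases (1.10 per kilobase). The median was 1.35 per kilobase over 19732 genes, and 97.4% or more of these were at or below the densities of Cxcl1, Cxcl2 and Cxcl3. A match is again a description of letters only.

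The cluster on chromosome 5 runs 146.6 kb from Cxcl5 to Cxcl2 and holds further CXC ligand genes, of which 1 was called, as lower. Ppbp, the precursor of another CXCR2 ligand stored in platelets, had 0.0653, 0.361 and 1.22 CPM in liver, against 45.9, 14.6 and 2.42 CPM in blood (log2 fold change -5.23, SE 1.32, adjusted p = 0.0265 by edgeR). Its blood libraries stood in the same order as their platelet marker sums of 289, 95.4 and 52.8 CPM, and the part of platelets was not tested. Its call was lost without liver 1, liver 2, liver 3 or blood 2 (adjusted p of 0.0526 to 0.0972 by edgeR). It was also lost by limma-voom (adjusted p = 0.196). By edgeR it was lost with sample number as a block (adjusted p = 0.137) and with no filter on low counts (adjusted p = 0.132). The log2 fold change of Ppbp was -3.99 without blood 1 and -6.54 without liver 3. Pf4, platelet factor, was not called, with 0.783, 5.42 and 3.60 CPM in liver, against 26.7, 3.86 and 1.14 CPM in blood. Cxcl15, a chemokine known from mouse lung, had 16 counts summed over liver and 0 summed over blood.

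**Figure D4:**
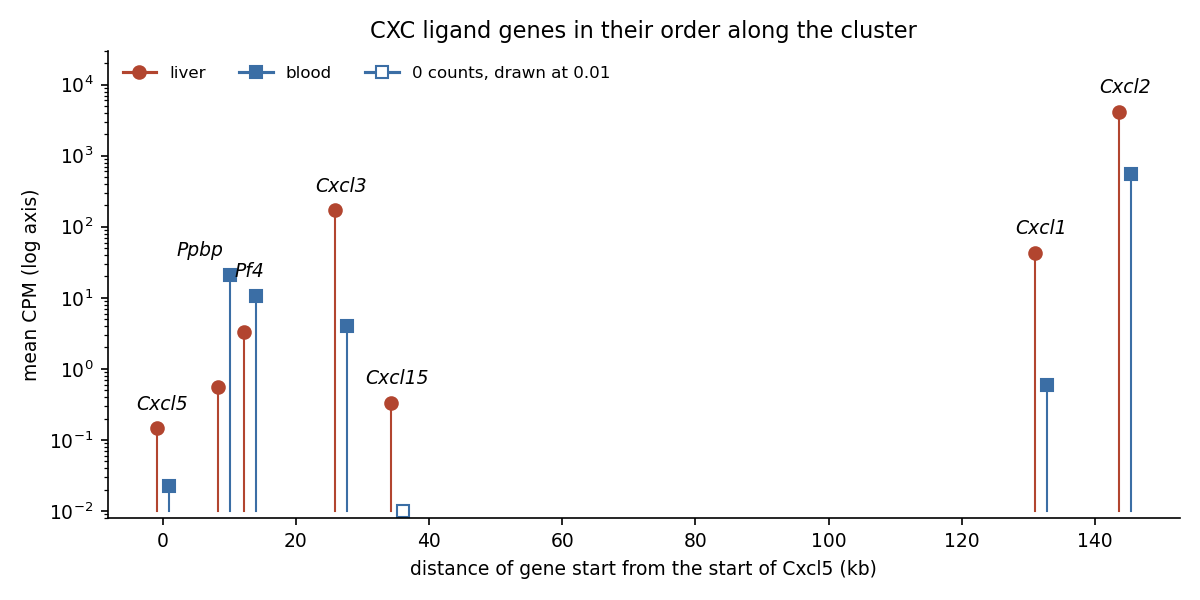
Mean CPM (log axis, n = 3 per group) of the CXC ligand genes by the distance of the gene start from that of Cxcl5, with liver drawn just left of blood. Cxcl1, Cxcl2 and Cxcl3 are higher in liver, Ppbp and Pf4, of which only Ppbp was called, are lower, and Cxcl15 has 0 counts in blood.

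Of the other CXC ligands, 4 of 11 had enough counts for a test, and 2 were called higher and 1 lower. The median log2 fold change was 1.34, against 0.04 for all genes, of which 17.4% were called higher and 14.2% lower. Cxcl16, a membrane-bound ligand of CXCR6, had 40.0, 24.8 and 34.2 CPM in liver, against 1.29, 0.263 and 1.41 CPM in blood (log2 fold change 5.01, SE 0.50, adjusted p = 0.00032 by edgeR). Cxcl10, an interferon-induced ligand of CXCR3, had 14.2, 13.1 and 9.46 CPM in liver, against 0, 1.66 and 0.201 CPM in blood (log2 fold change 4.37, SE 0.97, adjusted p = 0.0120 by edgeR). Blood 2 held most of the blood counts of Cxcl10, and the log2 fold change was 6.76 without it and 3.71 without blood 1. Without liver 3 and blood 1 the list also had 2 higher and 1 lower. By limma-voom it had 2 higher and 0 lower.

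Among 9 other CXC and atypical receptors, 5 were tested and 1 was called, higher. Their median was 0.22, against 0.04 for all genes, of which 17.4% were called higher and 14.2% lower. With an unadjusted p under 0.05 there were 2 higher and 0 lower by edgeR, and DESeq2 and limma-voom also called 1 higher and 0 lower, as did edgeR without liver 3 and blood 1. With upper-quartile scaling or a filter of 50 counts in 3 libraries 2 were called higher, Cxcr4 being the second, and with no filter 1 was called lower. Ccrl2, an atypical receptor that binds chemerin and does not signal through G proteins, had 1253, 1190 and 2019 CPM in liver, against 166, 167 and 91.6 CPM in blood (log2 fold change 3.40, SE 0.33, adjusted p = 0.00027 by edgeR). Ackr1, an atypical receptor that binds these ligands on venular endothelium and red cells, was at 0 in all 6 libraries. Cxcr4, which holds neutrophils in the marrow, was not called (728, 803 and 634 CPM in liver, against 476, 397 and 585 CPM in blood, adjusted p = 0.072 by edgeR), although its groups did not overlap.

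Genes that carry the receptor's signal were lower or not called. Of 23 genes of G protein signalling to migration, all tested, 10 were called lower and 0 higher by edgeR. Their median log2 fold change was -0.62, against 0.04 for all genes, of which 14.2% were called lower and 17.4% higher. With an unadjusted p under 0.05, 14 were lower and 1 higher, and DESeq2 and limma-voom each called 11 lower and 0 higher. The largest differences were those of Pik3r6 (28.1, 30.1 and 37.4 CPM in liver, against 97.5, 76.7 and 101 CPM in blood) and Ric8a, a chaperone of G protein alpha subunits (71.3, 73.5 and 76.8 CPM in liver, against 152, 184 and 215 CPM in blood). Their log2 fold changes were -1.53 (SE 0.20, adjusted p = 0.00097 by edgeR) and -1.31 (SE 0.19, adjusted p = 0.0013 by edgeR). Pik3r6 and Pik3r5 encode the regulatory subunits of phosphoinositide 3-kinase gamma, and Pik3r5 (-1.07, SE 0.18, adjusted p = 0.0024 by edgeR) was lower too. Prex1, a Rac activator driven by that kinase and by G protein beta-gamma subunits, was lower by a log2 fold change of -1.06 (SE 0.20, adjusted p = 0.0040 by edgeR). Without liver 3 and blood 1, 6 were called lower and 1 higher. That gene, Elmo1, a partner of the Rac activator Dock2, was also called higher without liver 3 alone.

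Genes that switch chemokine receptors off moved in both directions. The 19 of these that were found were all tested, and 5 were called higher and 6 lower. Their median was -0.22, against 0.04 for all genes, of which 17.4% were called higher and 14.2% lower. The lower ones included Rgs14 (-1.84, SE 0.21, adjusted p = 0.00052 by edgeR) and Rgs18 (-1.68, SE 0.26, adjusted p = 0.0018 by edgeR), which speed the shut-off of G protein alpha subunits. Grk6, a kinase that phosphorylates ligand-bound receptors, was lower as well, with 87.5, 88.0 and 118 CPM in liver, against 248, 267 and 375 CPM in blood (-1.60, SE 0.23, adjusted p = 0.0012 by edgeR). The higher ones included Rgs1, of the same family as Rgs14 (349, 107 and 412 CPM in liver, against 65.3, 39.2 and 20.5 CPM in blood, 2.79, SE 0.62, adjusted p = 0.0154 by edgeR). Grk3, of the same kinase family as Grk6, had 42.1, 18.3 and 70.8 CPM in liver, against 15.3, 3.33 and 2.89 CPM in blood (2.60, SE 0.79, adjusted p = 0.0470 by edgeR). For both, liver 2 was the lowest of the liver libraries. The call of Rgs1 was lost without liver 3 (adjusted p = 0.0523 by edgeR) or blood 2 (0.0725), and that of Grk3 without liver 1, liver 3, blood 2 or blood 3 (0.0947 to 0.139); Grk3 reached 3.77 without blood 1. The list had 3 higher and 5 lower without liver 3 and blood 1, and 2 higher without blood 2 or 3 higher without any other single library.

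Genes of the pathways that induce the ligands, the inhibitor Nfkbia among them, were split as well. Of 20 tested of 23, 6 were called higher and 5 lower. The median was 0.07, against 0.04 for all genes, of which 17.4% were called higher and 14.2% lower. Tnf, a cytokine that induces Cxcl1 and Cxcl2 in many cells, had 119, 234 and 136 CPM in liver, against 5.10, 7.71 and 6.51 CPM in blood (4.66, SE 0.32, adjusted p = 7.46e-05 by edgeR). Il1a, an alarm cytokine, had 168, 121 and 87.3 CPM in liver, against 1.01, 0.175 and 0.0671 CPM in blood (8.19, SE 0.68, adjusted p = 0.00032 by edgeR, and 9.96 without blood 1). Il1b, which signals through the same receptor, was not called, with 2292 to 2646.5 CPM in liver and 1476 to 2795 CPM in blood (0.30, SE 0.28, adjusted p = 0.432 by edgeR). Nfkbia, an inhibitor that NF-kB itself induces, was higher (2.36, SE 0.27, adjusted p = 0.00052 by edgeR). Cebpd, a transcription factor of the acute phase, was lower, with 125, 76.5 and 67.7 CPM in liver, against 262, 395 and 310 CPM in blood (-1.85, SE 0.27, adjusted p = 0.0015 by edgeR). Without liver 3 and blood 1, 6 genes were called higher and 4 lower.

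Of 13 genes whose proteins stabilise or destabilise the ligand mRNAs, all tested, 2 were called higher and 3 lower. Their median was -0.20, against 0.04 for all genes, of which 17.4% were called higher and 14.2% lower. Zc3h12a encodes Regnase-1, a ribonuclease that cleaves inflammatory mRNAs, and had 281, 243 and 240 CPM in liver, against 71.7, 87.1 and 49.7 CPM in blood (1.87, SE 0.23, adjusted p = 0.00069 by edgeR). Mapkapk2, the kinase that restrains the decay factor tristetraprolin, was higher too (1.93, SE 0.29, adjusted p = 0.0018 by edgeR). Mapk14, the p38 kinase upstream of it, was lower, with 127, 102 and 119 CPM in liver, against 360, 350 and 339 CPM in blood (-1.59, SE 0.18, adjusted p = 0.00049 by edgeR). Arid5a, which stabilises inflammatory mRNAs, was lower (-0.89, SE 0.23, adjusted p = 0.0180 by edgeR), a call lost without liver 2 (0.0556). Zfp36, which encodes tristetraprolin, was not called (-0.20, SE 0.37, adjusted p = 0.712 by edgeR). The list had 1 gene called lower without liver 2, and 2 higher and 2 lower without liver 3 and blood 1.

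Among 12 tested genes of marrow release and ageing, 3 were called higher and 4 lower. Their median was -0.47, against 0.04 for all genes, of which 17.4% were called higher and 14.2% lower. Gfi1, a repressor needed for neutrophil formation, had 8.03, 9.03 and 8.36 CPM in liver, against 2.59, 1.40 and 2.62 CPM in blood (1.93, SE 0.38, adjusted p = 0.0051 by edgeR). The circadian partners Clock (1.47, SE 0.28, adjusted p = 0.0042 by edgeR) and Arntl (1.61, SE 0.49, adjusted p = 0.0321 by edgeR) were higher. The call of Arntl was lost without liver 1, liver 3, blood 1 or blood 3 (0.0697 to 0.0967). The list had 2 genes called lower without liver 1, and 2 higher and 3 lower without liver 3 and blood 1.

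**Figure D5:**
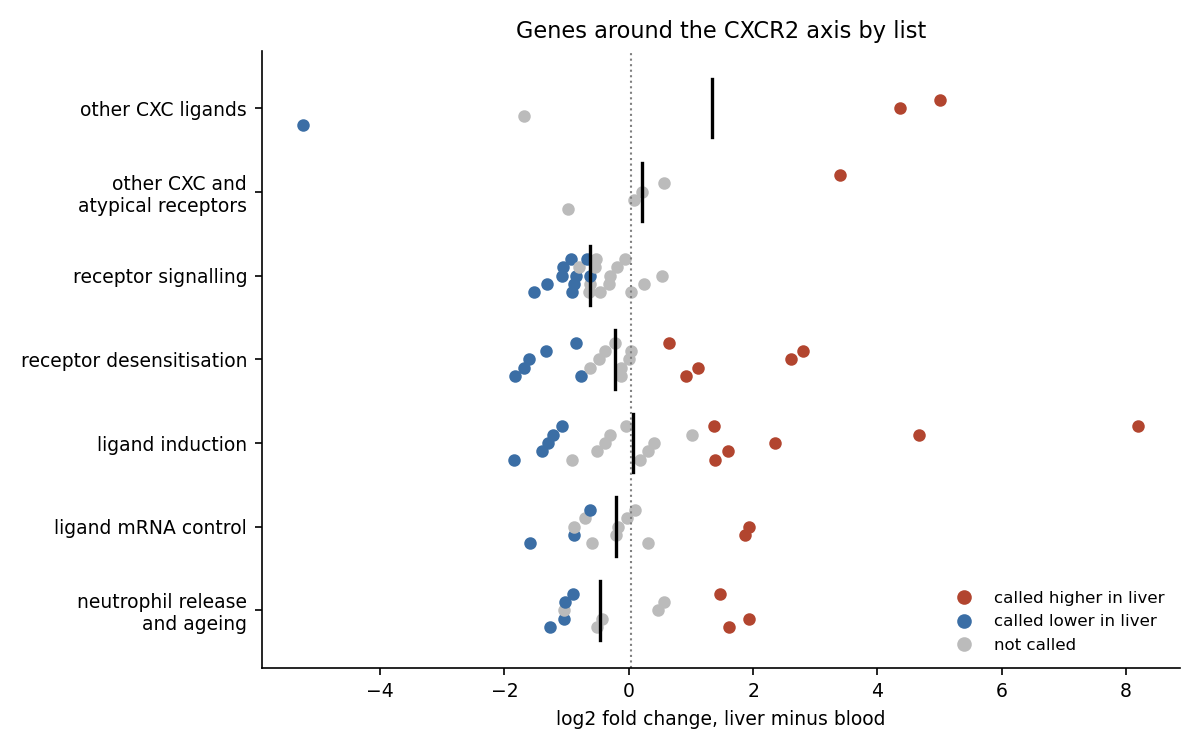
Log2 fold changes, liver minus blood, of the tested genes of 7 lists around the receptor (points coloured by call, black bars for list medians, dotted line for the median of all genes tested, 0.04). Receptor signalling has 10 genes called lower and 0 called higher, the other CXC and atypical receptors have 1 called gene, and the other 5 lists have called genes on both sides.

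By the root mean square difference of mean-centred log2 levels over the 6 libraries, the genes with the profiles most like each tested gene were as follows, among 6262 protein-coding candidates, and this likeness is a description without a test. Nearest to Cxcl2 were Ikbke, a kinase of the IKK family (difference 0.21), and Hivep2, a zinc finger factor (0.21), followed by Rab20, a small GTPase (0.24). Ikbke had a mean of 78.1 ± 17.7 CPM in liver, against 7.72 ± 5.45 CPM in blood (SD, n = 3 each). Hilpda, a lipid droplet protein induced by low oxygen, was nearest both to Cxcl1 (0.23) and to Cxcl3 (0.29). Its mean was 43.9 ± 16.6 CPM in liver, against 0.969 ± 0.920 CPM in blood (SD, n = 3 each). Ralgds, an activator of Ral GTPases (0.50), and Il23a, a subunit of interleukin 23 at 0 in every blood library (0.55), came next for Cxcl1. The 0.5 CPM added before logs draws levels near 0 together. The log2 fold change by edgeR was 11.4 for Il23a and 6.22 for Cxcl1. Next to Cxcl3 came Lif, a cytokine of the interleukin 6 family (0.55), and Tgm2, a transglutaminase (0.62).

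Cxcr2 had the closest neighbours of the 5 genes. The distance is not scaled by the size of a change, and Cxcr2 had the smallest change of the 5 (log2 fold change -1.60). It was nearest to Zfp768, a zinc finger gene (0.081), Tmem38a, an intracellular ion channel (0.087), and Padi4, the enzyme that citrullinates histones in neutrophils (0.097). Padi4 had a mean of 95.3 ± 22.6 CPM in liver, against 288 ± 31.7 CPM in blood (SD, n = 3 each). Cxcr1 was nearest to Lrg1, a granule glycoprotein (0.15), Klra17, a receptor of the Ly49 family (0.27), and Oasl2, an interferon-induced gene (0.29). Lrg1 had a mean of 209 ± 145 CPM in liver, against 653 ± 398 CPM in blood (SD, n = 3 each), with an adjusted p of 0.094 by edgeR, and was not called.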

How the data were processed

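RNA of Ly6G-selected mouse neutrophils was sequenced in 3 liver and 3 blood libraries, as paired ends after a stranded low-input total-RNA kit, per the labels. The deposited tables list, for each gene, expected counts that the authors made with STAR and RSEM on GRCm38, and FastQC 0.11.5 and limma are also named, per the submitters' processing notes; the sources used here give no other versions and no strand setting for the counting. Expected counts were rounded, filtered with filterByExpr (minimum count 10, total 15), scaled by TMM and, over 13458 genes, compared between liver and blood by the robust quasi-likelihood test of edgeR 4.0.16 in R 4.3.3. Calls needed an adjusted p under 0.05. Standard errors come from the F statistic. DESeq2 1.42.0 and limma-voom 3.58.1 served as alternatives, with other scalings, filters and left-out libraries. Ratios and shares used the longest protein-coding transcript in GENCODE, which matched 98.9% of rows, and two-sided exact permutation tests over 20 arrangements. The gene test was tested on simulated data. All 6 genes were named, with up to 4 called genes per list by size of change, members needed as a contrast and the 3 genes of nearest profile (mean at least 10 CPM, 0.5 added before logs). The genes and lists were chosen with earlier results of these data known. Promoter windows are RefSeq's (GRCm38.p6). Some genes of the lists are not reported here.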

Additional observations from a re-analysis of the deposited data

How the results depend on the processing

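The calls of Cxcl1, Cxcl2, Cxcl3 and Cxcr2 kept their direction and stayed under the threshold in all of their 15 or 16 alternatives (replicate block, DESeq2, limma-voom, 3 other scalings, 2 other filters, each library left out, liver 3 and blood 1 left out, and, except for Cxcl3, Cxcl2 with Cxcl3 as 1 feature). Leaving out single libraries gave 5.77 to 7.40 for Cxcl1, 2.51 to 3.46 for Cxcl2, 5.07 to 6.25 for Cxcl3 and -1.77 to -1.46 for Cxcr2. Cxcr1 passed the threshold as lower with a replicate block (-1.87, adjusted p = 0.0033 by edgeR), by DESeq2 (-1.77, adjusted p = 0.0117) and with no filter on low counts (-1.77, adjusted p = 6.25e-05 by edgeR), and ranged from -2.68 to -1.02 with single libraries left out; the cause was not tested. The mean log2 ratio of Cxcr1 to Cxcr2, liver minus blood, ranged from -0.78 to 0.24 with single libraries left out. The difference in the share of Cxcl5 among ligand transcripts ranged from -0.0117 to 0.0034 percentage points, with its sign resting on 1 count in blood 3. Of all genes, 1195 were called lower without liver 3 and blood 1, against 1916 with all libraries. Fewer samples and the absence of these particular libraries cannot be told apart, and the cause was not tested. Whether sample numbers pair the libraries is not settled, and in the main analyses they were used as names only. Deviations of same-numbered libraries correlated at 0.054, 0.156 and 0.0225 and liver 1 and liver 2, but not liver 3, which correlated best with blood 1 (0.120), had their highest correlation with their own number. With the replicate block, 16 genes of receptor signalling were called lower and 1 higher, and Ppbp was not called. None of the 6 receptor and ligand genes had a repeated symbol, so adding repeated rows gave no other value for them. Of 48 called genes in the pathway lists, 15 lost the call without some single library. Scalings moved the median of all genes by at most 0.087. Depth limited Cxcl5, at 7 liver and 1 blood counts, and the blood level of Cxcl1.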

Other observations

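Several CXC ligand genes that had too few counts for a test were read mainly in liver libraries. Liver libraries also read more genes in general, with 19238, 20377 and 21540 genes with a count, against 17822, 18013 and 18558 in blood. Whether the pattern is particular to these ligands was not tested. Cxcl9 had 30 counts summed over liver and 3 summed over blood, Cxcl14 had 20 and 0, Cxcl12 had 19 and 0, and Cxcl13 had 4 and 0. Of the 19 liver counts of Cxcl12, a ligand of CXCR4 made by stromal cells, most were in liver 3, at 1.03 CPM against 0.131 and 0.0602 CPM in liver 1 and liver 2, and liver 3 also had the highest endothelial marker sum, whose part was not tested.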
